A study of Arabidopsis thaliana with 4 samples.

Results

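The genes described here encode 10 enzymes of carotenoid synthesis and the xanthophyll cycle of Arabidopsis thaliana. They were chosen by locus code, as PSY, PDS3, ZDS, CRTISO, LCYB, LUT2, BCH1, BCH2, ZEP and VDE, and all 10 were found among the 31346 genes of the deposited table. Poly(A) RNA was measured in whole seedlings, 6 d old, in 2 libraries of wild type (WT) and 2 of a line that constitutively overexpresses CLPD in the WT background (ClpD-OE). By their titles both ClpD-OE libraries are of a single line, #5, whose own traits and the overexpression cannot be told apart, and neither the promoter of the transgene nor the ecotype is named in the labels. CLPD is a chaperone of the Clp protease system in the chloroplast stroma, and the series asks how seedlings respond when the precursor of such a protein accumulates in the cell. The labels do not say whether the replicates of a group are separate cultures, and p-values therefore reflect no more than the spread between these libraries, possibly a technical one.

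Plant carotenoids are made in plastids from geranylgeranyl diphosphate. PSY joins it into the colourless phytoene, desaturases and isomerases turn phytoene into red lycopene, and lycopene cyclases open a branch to lutein and a branch to beta-carotene. Hydroxylated beta-carotene is zeaxanthin, which ZEP converts to violaxanthin and VDE converts back in strong light, when zeaxanthin helps the photosynthetic antenna to shed excess energy as heat. Violaxanthin and the neoxanthin made from it are also the source of abscisic acid (ABA). In Arabidopsis the Clp protease takes part in the turnover of the PSY protein and of DXS, which starts the supply of precursors, and the OR protein protects PSY. Protein levels and pigments were not measured in these libraries.

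Total counts per library lay between 20800842 and 23294451. CLPD (AT5G51070) stood at 149 ± 2.80 CPM (counts per 1000000 of a TMM-scaled library) in WT against 1770 ± 143 in ClpD-OE (SD, n = 2 each), which is the direction the labels state. Values of a group are given below in the order of replicates 1 and 2. The 4 leaf markers fixed for the tissue (RBCS1A, CA1, RCA and LHCB1.3) summed to 63678 to 67342 CPM in WT and 43932 to 44113 in ClpD-OE, and all 4 were called lower, at log2 fold changes from -0.39 to -0.82. The 4 root markers summed to 1224 to 1340 CPM in WT and 1256 to 1289 in ClpD-OE, nearly all of it from PYK10, while CASP1, TIP2;3 and NRT2.1 had 48 counts or fewer in any library. Seed markers stayed under 1.60 CPM in sum, with CRU3 at 0 in every library, and flower markers at 9.39 to 12.3 CPM in WT and 14.2 to 16.8 in ClpD-OE. Leaf marker levels thus moved with the falls described here, and their part in them was not tested. In RNA from whole seedlings, fewer cells of a type and less RNA per cell cannot be told apart.

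In ClpD-OE, transcripts of 3 carotenoid enzymes were lower, those of PSY at the entry of the pathway, of the hydroxylase gene BCH2 and of ZEP. The desaturases PDS3 and ZDS, the isomerase CRTISO, the cyclases LCYB and LUT2, the other hydroxylase BCH1 and VDE did not pass the test. All 10 genes passed the filter on low counts, and edgeR's quasi-likelihood test called 3 of 10 lower and 0 higher at a Benjamini-Hochberg adjusted p under 0.05 over 18940 genes. Across all genes tested, 8.19% were called, 3.91% lower and 4.29% higher. At an unadjusted p under 0.05, 5 of the 10 were lower and 1 was higher, where 28.2% of all genes tested passed, 14.1% lower and 14.2% higher. DESeq2 called 4 lower and 0 higher, where it called 11.8% of all genes, 6.43% lower and 5.39% higher. The median log2 fold change of the 10 genes was -0.28, and that of all genes tested was 0.0011. Normalized CPM of the groups did not overlap for 8 genes that were lower in ClpD-OE and 1 that was higher, while 59.9% of all genes tested were apart, 29.4% lower and 30.5% higher. Scaling by library totals, in place of the TMM factors of edgeR, moved the median of all genes to 0.23 and the split of calls over all genes from 740 lower and 812 higher to 577 lower and 2699 higher. PSY, BCH2 and ZEP were lower under either scaling, while CRTISO was then called higher.

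**Figure D1:**
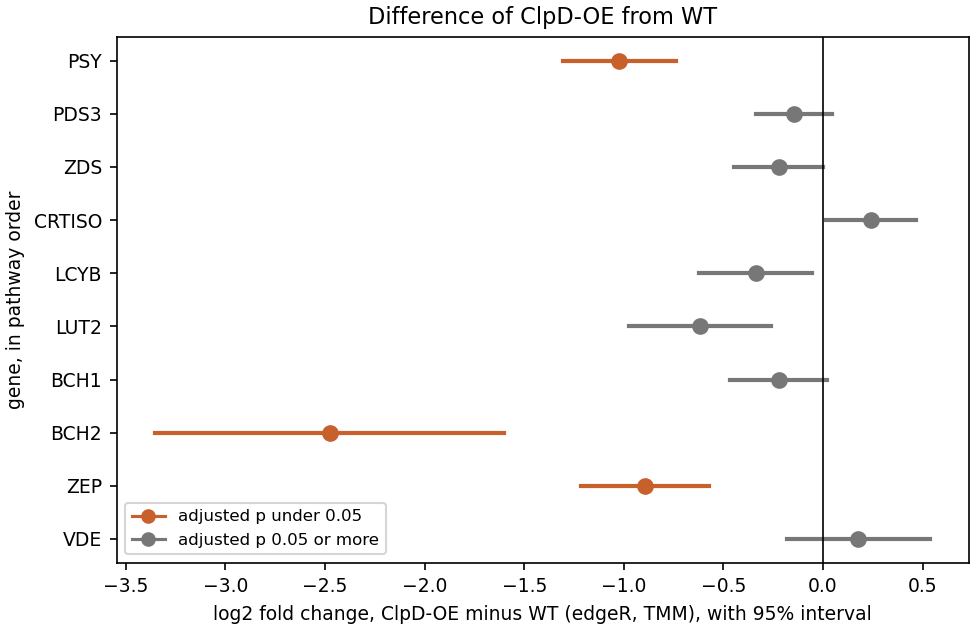
Log2 fold change of ClpD-OE against WT for the 10 genes in pathway order, from edgeR with TMM factors. Points are estimates from 2 libraries per group and bars their 95% intervals, with genes past the adjusted p threshold in orange. BCH2 at -2.48, PSY at -1.02 and ZEP at -0.90 were called and stand below 0. Of the genes not called, LUT2 and LCYB also have intervals wholly below 0, and CRTISO has one wholly above 0. PDS3, ZDS and BCH1 lie slightly below 0 here and at or slightly above 0 with library totals.

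PSY (AT5G17230, chromosome 5) encodes phytoene synthase, the committed enzyme of the pathway, which Arabidopsis has in a single copy. Its level was 300.3 and 255.6 CPM in WT against 130.7 and 143.0 CPM in ClpD-OE. Both ClpD-OE libraries lay far below both WT libraries. The gene was 2.03-fold lower in ClpD-OE, a log2 fold change of -1.02 (SE 0.112) with an edgeR adjusted p of 0.0193. In the RefSeq annotation 108 of its bases overlap AT5G17220 on the opposite strand, and whether the counting used strand is not stated in the labels, so reads from the overlap cannot be assigned with certainty. That neighbour had 309 and 118 counts in WT against 118 and 79 in ClpD-OE, where PSY had 5663 and 5276 against 3270 and 3541.

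The desaturases and the isomerase, which act in series after PSY, did not pass the test. PDS3 (AT4G14210), which introduces the first double bonds into phytoene, had 128.5 and 125.9 CPM in WT against 114.8 and 115.1 in ClpD-OE. Its log2 fold change was -0.15 with a 95% interval from -0.34 to 0.045 (edgeR adjusted p = 0.276). ZDS (AT3G04870), which continues the desaturation to lycopene, had 139.0 and 125.3 CPM in WT against 114.7 and 111.7 in ClpD-OE. Its interval ran from -0.45 to 0.0018 around -0.22 (edgeR adjusted p = 0.18), and 115 of its bases overlap AT3G04880 on the opposite strand. Both lay lower in each ClpD-OE library on this scale, by less than the test could call, and with library totals their log2 fold changes were 0.080 and 0.0040. CRTISO (AT1G06820), the isomerase that yields all-trans lycopene, went the other way, with 37.1 and 39.6 CPM in WT against 44.2 and 46.4 in ClpD-OE. Its log2 fold change of 0.24 did not pass the test (SE 0.0894, edgeR adjusted p = 0.160), and with library totals it was 0.46 and was called (edgeR adjusted p = 0.0386).

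At the branch point, neither cyclase was called, and that of the lutein branch had the more negative log2 fold change. LUT2 (AT5G57030), the lycopene epsilon-cyclase, had 111.2 and 85.2 CPM in WT against 63.9 in each ClpD-OE library. Its log2 fold change of -0.62 (SE 0.141) missed the threshold in edgeR, at an adjusted p of 0.0609, and passed in DESeq2, at an adjusted p of 0.0122. It was also called in the authors' deposited table (log2 fold change -0.39, adjusted p 0.0135), and by edgeR without WT replicate 2 (-0.80, adjusted p = 0.0123). LCYB (AT3G10230), the lycopene beta-cyclase, had 89.0 and 78.1 CPM in WT against 61.7 and 70.5 in ClpD-OE, with a log2 fold change of -0.34 (95% interval -0.62 to -0.055, edgeR adjusted p = 0.128). LUT2 shares 74 bases with AT5G57020 on the same strand. LCYB shares 157 bases with AT3G10220 and 199 with the long non-coding RNA gene AT3G02305, both on the opposite strand, and no row of the table used here carries the latter locus. Within a library, the ratio of LUT2 to LCYB counts does not depend on the scaling between libraries. It was 1.25 and 1.09 in WT against 1.04 and 0.907 in ClpD-OE, 1.2-fold lower, with no overlap. The exact two-sided permutation test gave p = 0.333 for this and each of the other 3 ratios below, which is the smallest p that 2 libraries against 2 allow.

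BCH1 and BCH2 encode closely related non-haem hydroxylases that turn beta-carotene into zeaxanthin, and of the pair BCH2 was called lower and BCH1 was not. BCH2 (AT5G52570, chromosome 5) had 23.28 and 15.02 CPM in WT against 4.40 and 2.46 in ClpD-OE, which rest on 439 and 310 counts against 110 and 61. Replicates of either group differed by more than those of the other 9 genes, yet the higher ClpD-OE library stayed well under the lower WT library. The gene was 5.57-fold lower in ClpD-OE, a log2 fold change of -2.48 (SE 0.346) with an edgeR adjusted p of 0.0265, the largest change among the 10 genes. It was not called without WT replicate 1 (log2 fold change -2.13, edgeR adjusted p = 0.0541). BCH1 (AT4G25700, chromosome 4) had 36.0 and 39.6 CPM in WT against 32.9 and 31.9 in ClpD-OE. Its log2 fold change of -0.22 had an interval from -0.47 to 0.021 (edgeR adjusted p = 0.206), and was 6.8e-04 with library totals. The ratio of BCH2 to BCH1 counts was 0.647 and 0.379 in WT against 0.134 and 0.0773 in ClpD-OE, 4.87-fold lower. Reads could be divided between such paralogs by the counting, and a gene that overlaps BCH2 by 19 bases on the opposite strand, AT5G52560, had 721 to 768 counts in WT and 860 to 867 in ClpD-OE.

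The stretches of 250 bases before the annotated starts of the called genes and of BCH1, the paralog that was not called, are shown because these genes share a pathway and differ in whether they were called. They are from RefSeq assembly TAIR10.1, found by locus code, at chr5:21337127-21337376, chr4:13096050-13096299, chr5:5662998-5663247 and chr5:26757403-26757652, all on the minus strand, and are written 5' to 3' along the gene. Capitals mark matches on either strand to CACGTG, the G-box that PIF and HY5 factors bind, or to ATCTA, an element known from the PSY promoter.
BCH2: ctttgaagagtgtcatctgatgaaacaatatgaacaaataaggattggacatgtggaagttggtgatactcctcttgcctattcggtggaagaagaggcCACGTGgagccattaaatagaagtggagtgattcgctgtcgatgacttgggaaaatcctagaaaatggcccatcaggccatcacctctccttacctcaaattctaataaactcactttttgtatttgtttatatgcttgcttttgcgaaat
BCH1: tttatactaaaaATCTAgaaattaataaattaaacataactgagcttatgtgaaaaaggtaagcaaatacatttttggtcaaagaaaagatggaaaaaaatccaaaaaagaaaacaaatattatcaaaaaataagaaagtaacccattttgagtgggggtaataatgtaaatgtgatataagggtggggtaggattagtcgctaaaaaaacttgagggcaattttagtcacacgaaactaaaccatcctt
PSY: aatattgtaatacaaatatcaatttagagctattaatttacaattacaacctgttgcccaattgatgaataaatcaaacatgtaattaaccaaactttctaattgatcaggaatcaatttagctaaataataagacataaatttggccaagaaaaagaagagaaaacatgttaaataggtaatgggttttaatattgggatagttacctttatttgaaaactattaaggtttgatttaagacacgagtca
ZEP: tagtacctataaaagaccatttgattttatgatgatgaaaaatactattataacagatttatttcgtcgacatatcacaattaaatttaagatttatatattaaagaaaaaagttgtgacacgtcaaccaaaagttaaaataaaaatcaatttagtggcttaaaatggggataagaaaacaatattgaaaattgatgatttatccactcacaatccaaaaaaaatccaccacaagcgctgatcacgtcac
The G-box of BCH2, whose first base lies 151 bases before the start, was the only one in these windows of the 10 genes, and 6.49% of the 27443 windows of this length before protein-coding genes hold one. ATCTA was in the windows of 5 of the 10 genes (PDS3, ZDS, CRTISO, LUT2 and BCH1) and in 49.2% of all windows. The windows of LUT2, LCYB and VDE overlap other genes, namely AT5G57020, AT3G02305 and AT1G08540. AAAATATCT, the evening element of clock-controlled genes, was in 0 of the 10 and in 2.36% of all. A match is a description of letters and not of a factor bound there, and factors can bind outside these windows.

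Of the enzymes of the xanthophyll cycle, ZEP fell and VDE did not pass the test. ZEP (AT5G67030, chromosome 5), also known as ABA1, had 571.7 and 454.8 CPM in WT against 270.5 and 281.2 in ClpD-OE. Both ClpD-OE libraries lay below both WT libraries, which differed from each other more than the ClpD-OE libraries did. The gene was 1.86-fold lower in ClpD-OE, a log2 fold change of -0.90 (SE 0.127) with an edgeR adjusted p of 0.0271. VDE (AT1G08550, chromosome 1), also known as NPQ1, had 99.97 and 126.2 CPM in WT against 119.1 and 136.9 in ClpD-OE. By normalized CPM it was the only one of the 10 genes whose groups overlapped. Its log2 fold change was 0.18 with an interval from -0.18 to 0.54 (edgeR adjusted p = 0.468), and 0.40 with library totals (edgeR adjusted p = 0.125). In the authors' FPKM the groups of VDE lay apart, at 46.6 and 60.8 in WT against 64.6 and 75.5 in ClpD-OE. Those of ZDS, LCYB and BCH1 overlapped on that scale. AT1G08560, which overlaps VDE by 464 bases on the opposite strand, had 706 to 846 counts per library, where VDE had 1885 to 3389. The ratio of VDE to ZEP counts was 0.175 and 0.278 in WT against 0.440 and 0.487 in ClpD-OE, 2.1-fold higher. The ratio of PSY to PDS3 counts, the enzymes of the opening steps, was 2.34 and 2.03 in WT against 1.14 and 1.24 in ClpD-OE, 1.83-fold lower. In each of the 4 ratios the groups lay apart. For CPM of single genes the groups lay apart in 59.9% of all genes tested, and the like share for ratios of 2 genes was not computed. The ratios BCH2 to BCH1, VDE to ZEP and PSY to PDS3 each pair a called gene with an uncalled one. They therefore restate those calls and add no separate result.

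**Figure D2:**
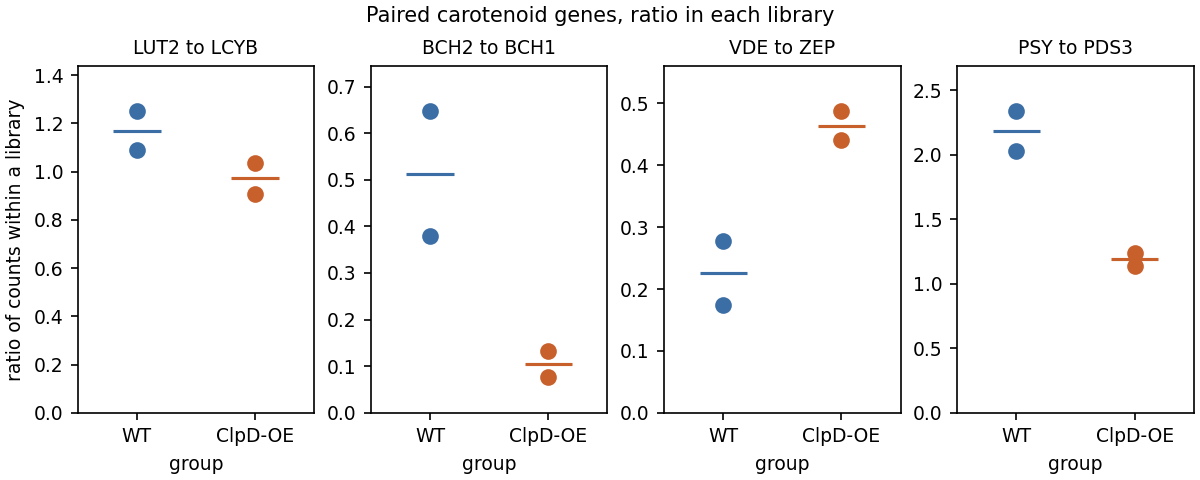
Ratio of the counts of paired genes within each library, for the lycopene cyclases (LUT2 to LCYB), the hydroxylase paralogs (BCH2 to BCH1), the xanthophyll cycle enzymes (VDE to ZEP) and the opening steps (PSY to PDS3). Points are libraries and lines are means of 2. Counts are not corrected for gene length, so the position of a ratio relative to 1 carries no meaning, while its difference between groups does.

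The size of the falls depended on the WT library used. Without WT replicate 1, the edgeR log2 fold change was -0.90 for PSY and -0.72 for ZEP. Without WT replicate 2 it was -1.13 and -1.05. With ClpD-OE replicate 1 or 2 left out, edgeR called 0 genes of the whole table, although 3603 and 3034 genes had an unadjusted p under 0.05, and the adjusted p of PSY, BCH2 and ZEP then lay between 0.170 and 0.195. DESeq2 was tried in the same way after the data were seen, and it did not lose all its calls. A group of 1 library shows no spread of its own, so only log2 fold changes are given for DESeq2. Over the libraries left out, its log2 fold changes ran from -1.14 to -0.90 for PSY. They ran from -2.96 to -2.12 for BCH2 and from -1.06 to -0.72 for ZEP. The authors' deposited table gives 4 of the 10 genes an adjusted p under 0.05, all lower, namely PSY (log2 fold change -0.77), LUT2 (-0.39), BCH2 (-2.26) and ZEP (-0.66), where 6.55% of its genes passed that threshold, 3.6% lower and 2.96% higher. Those fold changes rest on FPKM, which follow library totals.

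**Figure D3:**
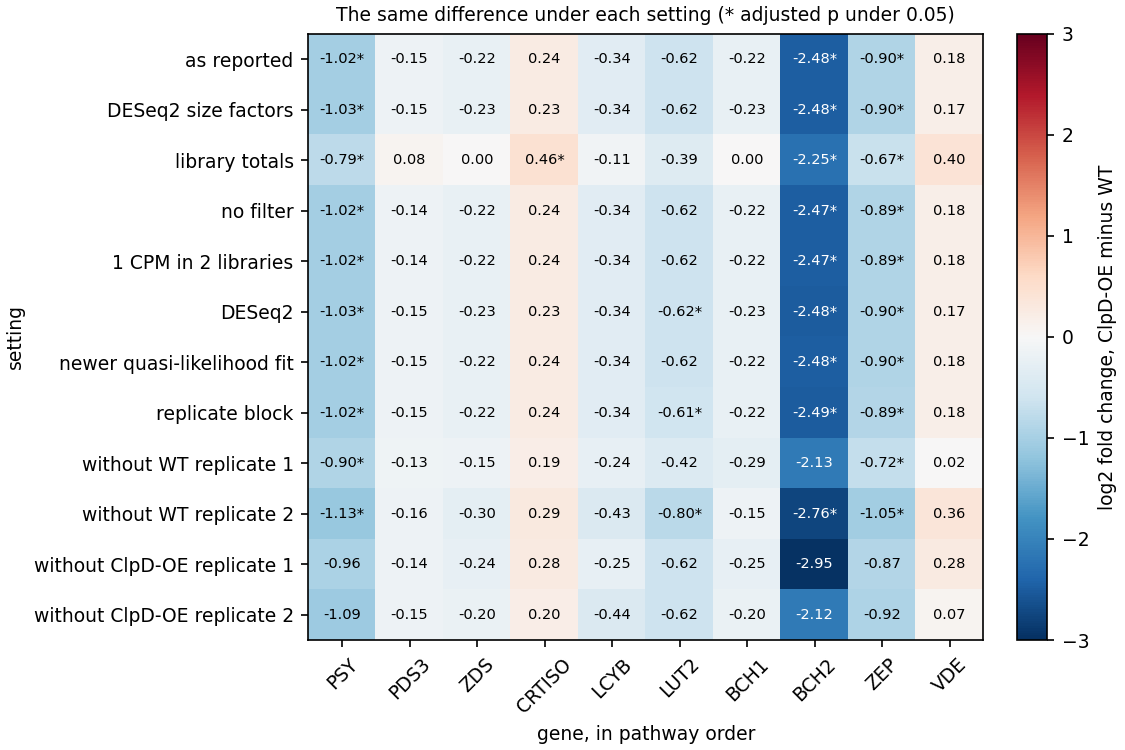
Log2 fold change of ClpD-OE against WT for the 10 genes (columns, in pathway order) under each setting (rows), with an asterisk where the adjusted p was under 0.05. BCH2, PSY and ZEP are negative in every row, without asterisks where a ClpD-OE library was left out, and for BCH2 also without WT replicate 1. PDS3, ZDS and BCH1 turn positive with library totals.

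Levels were compared between genes per length, with the authors' FPKM. ZEP and PSY were the most abundant transcripts of the pathway in WT, at 182 ± 24.4 and 137 ± 12.9 FPKM (SD, n = 2). ZDS (63.1 ± 3.04), VDE (53.7 ± 10.03) and PDS3 (53.1 ± 0.689) followed, then LUT2 (42.4 ± 6.76), LCYB (39.2 ± 2.52) and BCH1 (25.0 ± 2.38). CRTISO (14.9 ± 1.25) and BCH2 (13.9 ± 3.78) were lowest. The neighbours VDE and PDS3, LUT2 and LCYB, and CRTISO and BCH2 had overlapping libraries in WT, and the other neighbours in this order did not. In ClpD-OE ZEP (115 ± 3.80 FPKM) and PSY (80.8 ± 5.40) still led, VDE (70.0 ± 7.74) stood above ZDS (63.1 ± 1.10), LCYB (36.3 ± 3.75) above LUT2 (32.3 ± 0.292), and BCH2 was at 2.91 ± 1.13. No neighbours overlapped there. The 10 genes summed to 653 and 598 FPKM in WT against 488 and 516 in ClpD-OE, and PSY and ZEP made up 53.0% and 49.1% of that sum in WT against 38.8% and 39.2% in ClpD-OE.

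**Figure D4:**
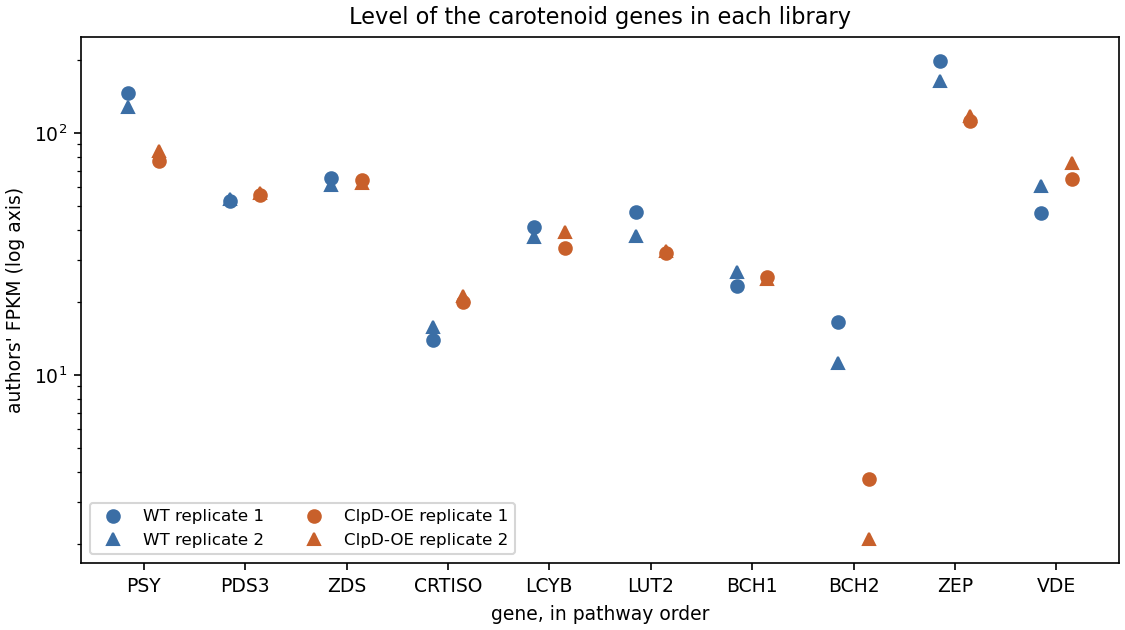
Level of the 10 genes in each library, as the authors' FPKM on a log axis, with circles for replicate 1 and triangles for replicate 2. ZEP and PSY are highest in all 4 libraries, and BCH2 drops from 16.6 and 11.3 FPKM in WT to 3.71 and 2.11 FPKM in ClpD-OE.

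Around the pathway, 59 further genes in 7 lists were examined, of which 52 passed the filter. The lists were chosen with earlier results of these data known, so their counts beside those of all genes are a description and not a test. Of the 52, 15 were called lower and 0 higher by edgeR, against 3.91% lower and 4.29% higher over all genes tested. At an unadjusted p under 0.05, 24 were lower and 4 higher, against 14.1% and 14.2% of all genes, and DESeq2 called 17 lower and 1 higher, against 6.43% and 5.39%. With library totals 13 of the 52 were called lower and 6 higher, where 577 of the 18940 genes tested were lower and 2699 higher. The number of rises thus depends on the scaling, in the lists and over all genes. Among 11 genes that supply plastid isoprenoid precursors, 2 were called lower (median log2 fold change -0.19). These were DXS, which opens the methylerythritol phosphate route and was 1.92-fold lower in ClpD-OE, a log2 fold change of -0.94 (SE 0.0858) with an edgeR adjusted p of 0.0188, and HDR, which closes it (1.84-fold lower, edgeR adjusted p = 0.0216). GGPPS11, the main plastid geranylgeranyl diphosphate synthase, had a log2 fold change of -0.19 (edgeR adjusted p = 0.201) and 0.039 with library totals.

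Over all genes tested, 8.19% were called in either direction and 3.91% lower. Of 9 other carotenoid enzymes and partners, 1 (11.1%) was called lower. It was OR (AT5G61670), which encodes a DnaJ-like partner that stabilises PSY. It had 99.3 ± 12.5 CPM in WT against 56.1 ± 1.96 in ClpD-OE (SD, n = 2) and was 1.77-fold lower (log2 fold change -0.82, edgeR adjusted p = 0.0261). AT5G06130, annotated as a DnaJ-like chaperone gene, was at 0.23 (edgeR adjusted p = 0.166). The isomerase gene Z-ISO was at -9.4e-04, the P450 hydroxylase genes of the lutein branch LUT1 and LUT5 at 0.20 and -0.12, PTOX, the plastid terminal oxidase that takes electrons from phytoene desaturation, at -0.069, and ABA4, needed for neoxanthin, at -0.30, and edgeR called none of these 5 (adjusted p 0.201 to 0.996, with 0 at an unadjusted p under 0.05, and 0 called by DESeq2). Their list had a median of -9.4e-04. At an edgeR unadjusted p under 0.05 the whole list had 1 gene lower and 2 higher, against 14.1% and 14.2% of all genes tested. The 2 higher were AT5G06130 (edgeR unadjusted p = 0.0448) and CYP97B3, at a log2 fold change of 0.23 (edgeR unadjusted p = 0.0387, adjusted p = 0.154). With library totals LUT5, PTOX and Z-ISO were at 0.11, 0.16 and 0.22, and LUT1 and AT5G06130 were called higher.

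Downstream of the pathway, CCD4, a dioxygenase that degrades carotenoids in plastids, was 2.18-fold lower in ClpD-OE, a log2 fold change of -1.13 (SE 0.175) with an edgeR adjusted p of 0.0304, but was not called without WT replicate 1 (edgeR adjusted p = 0.0779). CCD1, the cytosolic dioxygenase, had a log2 fold change of -0.091 (edgeR adjusted p = 0.532). CCD7 and CCD8, of strigolactone synthesis, were not tested, with 0 counts in every library for CCD7 and 2 to 11 for CCD8. Of 8 genes of ABA synthesis that act after ZEP, 4 were tested and 2 called lower, against 3.91% lower over all genes. NCED3 was 8.0-fold lower (edgeR adjusted p = 0.0372), a log2 fold change of -3.0, and of -2.05 without WT replicate 1. Its WT libraries differed widely, at 200.8 and 70.1 CPM against 19.2 and 14.6 in ClpD-OE. AAO3 was at -0.56 (edgeR adjusted p = 0.0480). AAO3 was not called with library totals (edgeR adjusted p = 0.0957), with no filter (0.0521), or without WT replicate 1 or 2.

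The list of other branches of prenyl and quinone synthesis had 4 of 11 tested genes called lower, with a median of -0.32. VTE1 (AT4G32770) of this list, at a log2 fold change of -1.16, was not called by edgeR (adjusted p = 0.0518) but was by DESeq2 (adjusted p = 3.29e-04). It had 70.9 and 43.6 CPM in WT against 27.4 and 23.7 in ClpD-OE. HPPD, which makes the precursor of plastoquinone and tocopherol, was 1.92-fold lower (edgeR adjusted p = 0.0188). SPS1 and SPS2, which make the plastoquinone side chain, were 1.72-fold and 2.23-fold lower, and CHLP, which makes the phytyl chain of chlorophyll, 1.60-fold lower (edgeR adjusted p 0.0261 to 0.0400). SPS1 was not called without WT replicate 1 (edgeR adjusted p = 0.0605). Of 7 photoprotection genes 4 were called lower, with a median of -0.55, where 3.91% of all genes were called lower. The exception in direction was CHL (AT3G47860), a plastid lipocalin gene, with 27.6 and 45.6 CPM in WT against 62.9 and 74.2 in ClpD-OE. Its groups lay apart, and its log2 fold change of 0.90 was not called by edgeR (adjusted p = 0.0874) but was by DESeq2 (adjusted p = 0.00870). PSBS, the sensor of lumen acidity in the quenching that zeaxanthin promotes, was 1.94-fold lower in ClpD-OE, a log2 fold change of -0.95 (SE 0.106) with an edgeR adjusted p of 0.0199. PGRL1A, PGR5 and PGRL1B, of cyclic electron flow, were 1.81-fold, 1.78-fold and 1.46-fold lower, the last not called without WT replicate 1 (edgeR adjusted p = 0.0794) or with library totals (edgeR adjusted p = 0.0674). Among 8 genes of factors tied to PSY or CRTISO expression 1 (12.5%) was called lower, where 3.91% of all genes were lower and 8.19% called in either direction. It was PIF5, at 1.40-fold lower (edgeR adjusted p = 0.0444). PIF5 was not called without WT replicate 1 or with library totals (edgeR adjusted p = 0.105). PIF4, at a log2 fold change of -0.73, was not called by edgeR (adjusted p = 0.0595) but was by DESeq2 (adjusted p = 0.00420). All 15 calls were lost when a ClpD-OE library was left out, as edgeR then called 0 genes of the whole table.

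**Figure D5:**
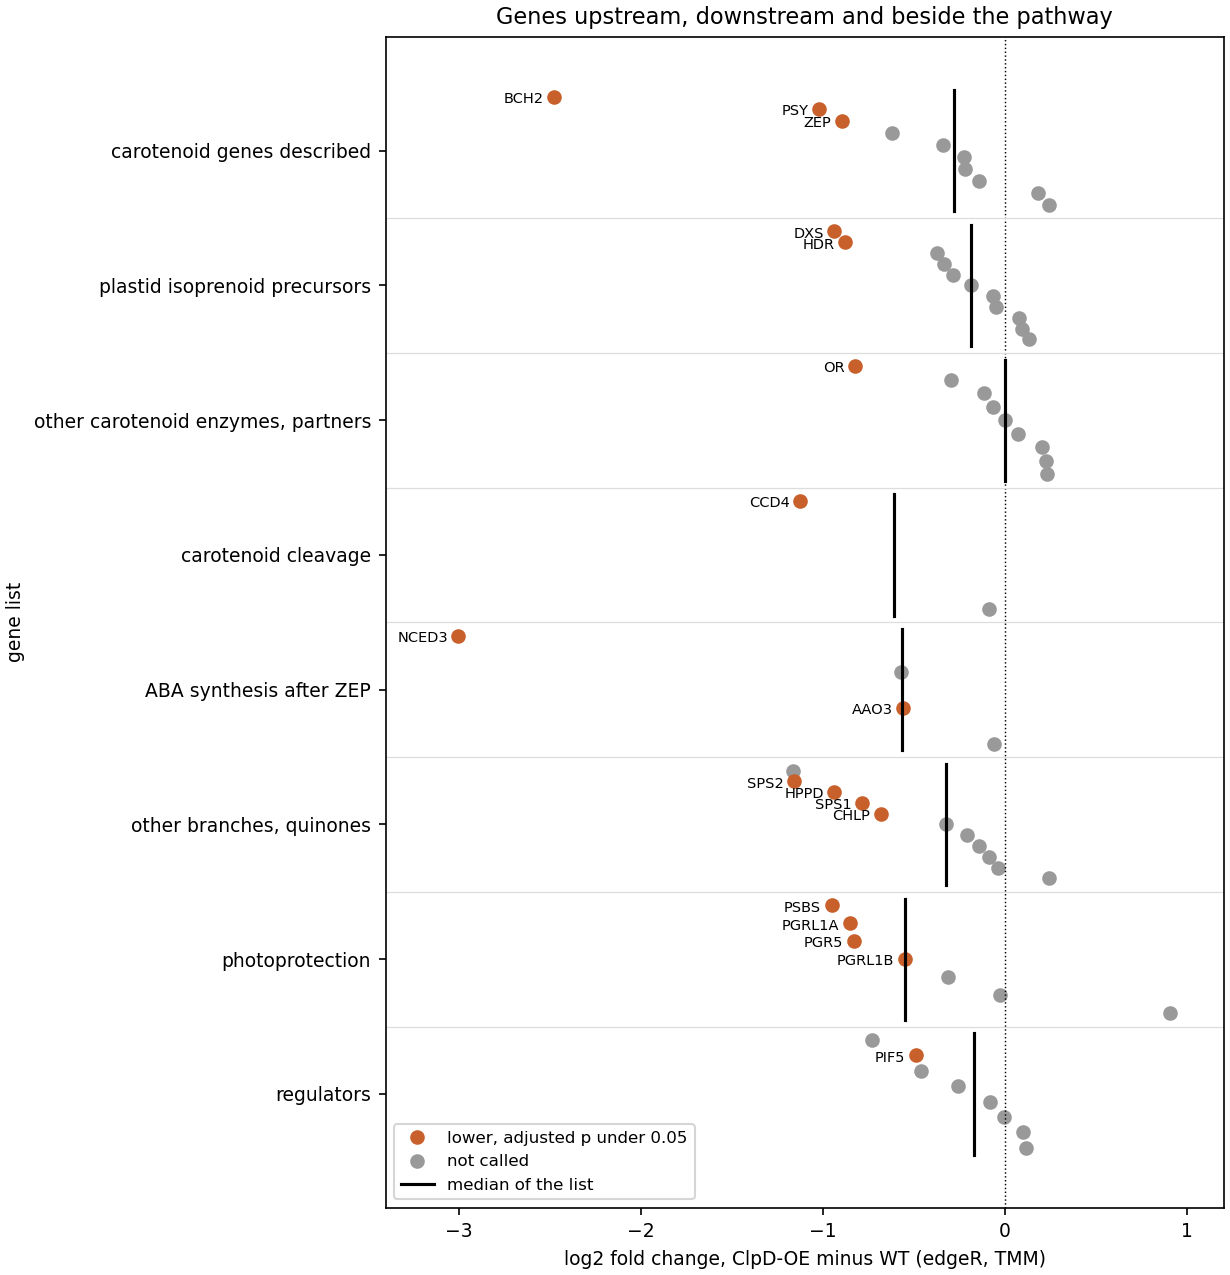
Log2 fold change of ClpD-OE against WT for the tested genes of the pathway and of 7 lists around it, from edgeR with TMM factors. Each point is a gene, named and orange where it was called lower, and each bar is the median of its list. The called genes lie at -0.49 and below, and 0 points right of 0 are orange, which holds for this scaling and not for library totals, where 6 genes of the lists were called higher.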

How the data were processed

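Per the labels, poly(A) RNA of whole seedlings was sequenced in 2 WT and 2 ClpD-OE libraries. The submitters' processing notes name the build TAIR10 and the tools DESeq2, RSEM, StringTie 1.3.1, HISAT2, Bowtie2 2.2.8 and fastp 0.18.0, without saying what each did. Deposited by the authors was 1 table with estimated counts per gene, whole numbers that rounding did not change, FPKM per library, the group means, a log2 fold change of the mean FPKM, and a p-value and adjusted p-value of a test that the file headers do not name. The 10 genes and the gene lists were chosen with earlier results of these data known.

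All genes were fitted with edgeR 4.0.16 in R 4.3.3 (TMM, filterByExpr, glmQLFit and glmQLFTest, genotype as the only term), with Benjamini-Hochberg adjustment over all 18940 genes tested and calls at an adjusted p under 0.05. The SE was taken as the size of the log2 fold change over the square root of F, and intervals use the total degrees of freedom of the fit. Normalized CPM used TMM-scaled library sizes. DESeq2 1.42.0 was an alternative. Replicates differed by more than sampling noise (chi-square per degree of freedom 19.4 in WT and 10.6 in ClpD-OE). The fit was tested on simulated counts. Named genes are the 10 genes, CLPD, 10 further pathway genes fixed by name and up to 4 called genes per list. CCD1, CCD7, CCD8, CHL, CYP97B3, PIF4 and VTE1 were added after their values were seen. Sequences and overlapping genes are from RefSeq TAIR10.1, whose coordinates were not joined to the deposited table. Intervals cover the spread between these samples only, and the labels name no molecular identifiers.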

Additional observations from a re-analysis of the deposited data

How the results depend on the processing

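The 3 calls of PSY, BCH2 and ZEP held with DESeq2 size factors, library totals, no filter, a minimum of 1 CPM in 2 libraries, DESeq2, the newer quasi-likelihood fit and the replicate block. Leaving out 1 library gave 0 to 4 carotenoid genes called lower, the cause of the zeros not being tested. Over the lists the same step gave 0 to 16 genes lower and 0 to 1 higher, with 0 to 2 lower for precursors, 0 to 1 for other carotenoid genes, 0 to 1 for cleavage, 0 to 1 for ABA synthesis, 0 to 5 for other branches, 0 to 4 lower and 0 to 1 higher for photoprotection, and 0 to 2 lower for regulators, and over all genes 0 to 1602 lower and 0 to 1179 higher.

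With library totals, the median of the 10 genes was -0.055 and 1 of them was called higher. In the lists, 6 genes were called higher, which were 1 of precursors, 3 of other carotenoid genes, 1 of other branches and 1 of photoprotection, with 1 lower in ABA synthesis, 0 lower among regulators, and 2699 higher over all genes. PDS3, ZDS, BCH1, Z-ISO, LUT5, PTOX and GGPPS11 turned positive, at 0.080, 0.0040, 6.8e-04, 0.22, 0.11, 0.16 and 0.039. Z-ISO, at -9.4e-04 otherwise, was also at 0.0014 without a filter, 0.0015 with the 1 CPM minimum, 0.033 without ClpD-OE replicate 2, and between -0.051 and 0.048 over all libraries left out. Without a filter, 1 ABA synthesis gene was called lower. DESeq2 called 1 photoprotection gene higher, the 1 rise over all lists, 2 regulators lower and 1217 genes lower in all.

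The labels share replicate numbers but do not say that these pair libraries. The change from replicate 1 to 2 correlated at 0.27 across genes between WT and ClpD-OE. With the replicate block, 4 carotenoid genes were called lower, LUT2 being the added one, and 1 photoprotection gene was higher, the 1 rise over all lists, 3 regulators were lower, and 1885 genes were lower and 1628 higher over the table. BCH2 rests on 61 to 439 counts per library and is the least precise of the 10 genes.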
